A study of Rattus norvegicus with 6 samples.

Results

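The transcripts of 8 genes of GABA and glutamate signalling were followed in pancreatic islets of rats aged 3 and 12 months. The genes were chosen by name for their roles in making, breaking down and sensing these 2 transmitters, and they are 8 of 13903 genes with a named probe on the array. They were *Gad1*, *Gad2*, *Abat*, *Gabbr1*, *Gabbr2*, *Gria2*, *Grin1* and *Glud1*, and all 8 passed the filter on dim probes. RNA came from islets of male Wistar rats aged 3 months or 12 months, freed from the pancreas by collagenase, with 3 arrays per age. No treatment or genetic change was listed for either age. Each array measured 1 labelled sample, and values are given on the log2 scale after quantile normalization, so that a difference of 1 stands for a doubling of the signal. The series counts 3 rats per age but does not spell out that each array held 1 rat, and the p-values measure the spread between these arrays.

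GABA is made from glutamate by glutamate decarboxylase and is broken down by a transaminase in mitochondria. Pancreatic beta cells are known to make and release GABA, which acts on chloride channels (GABA-A receptors) and on G protein-coupled receptors (GABA-B receptors) of islet cells. Glutamate is both the precursor of GABA and a transmitter in its own right, sensed by AMPA, kainate, NMDA and metabotropic receptors, and it stands at the entry to the citric acid cycle through glutamate dehydrogenase.

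The arrays of the 2 ages differed in ways that bear on every value below. Each age was scanned in a scan of its own, so age and scan cannot be told apart. Probes well above background made up 75.7% ± 2.32 (SD, n = 3) of the 3-month probes and 61.2% ± 2.61 (SD, n = 3) of the 12-month probes, while the median signal of the negative control spots was 30.2 ± 0.764 (SD) and 90.5 ± 0.866 (SD) scanner units. The 3-month replicate 1 array was dimmest, with a 75th percentile of 353 scanner units against 1187 to 2611 on the other arrays. The hormone transcripts *Ins1*, *Gcg*, *Sst* and *Ppy* were well above background on all 6 arrays, and so were 5 of the 5 acinar (exocrine) markers with a probe. In RNA of whole islets, fewer cells of a type and less RNA per cell cannot be told apart.

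None of the 8 genes passed the test between the ages in limma at an adjusted p under 0.05, where 8.37% of the 17941 tested probes did, 5.32% higher and 3.05% lower at 12 months. At an unadjusted p under 0.05, 2 of the 8 genes (*Gad2* and *Abat*) passed in limma, against 32.4% of all probes. In the methods' t-test 2 passed as well (*Abat* and *Glud1*), against 27.1% of all probes. The 3 arrays of one age did not overlap those of the other for *Gad2* and *Glud1*, higher at 12 months, and for *Abat*, lower at 12 months. That is 3 of 8 genes, against 39.1% of all tested probes, 16.5% higher and 22.6% lower. The difference was above 0 for 7 genes, with a median over the 8 of 0.23 beside -0.17 over all tested probes. When arrays were scaled by their 75th percentile instead, 4 differences were above 0 and 4 below, with a median of -0.10 beside -0.40 over all probes. In every scaling tried, 7 of the 8 genes lay above the median of all probes.

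**Figure D1:**
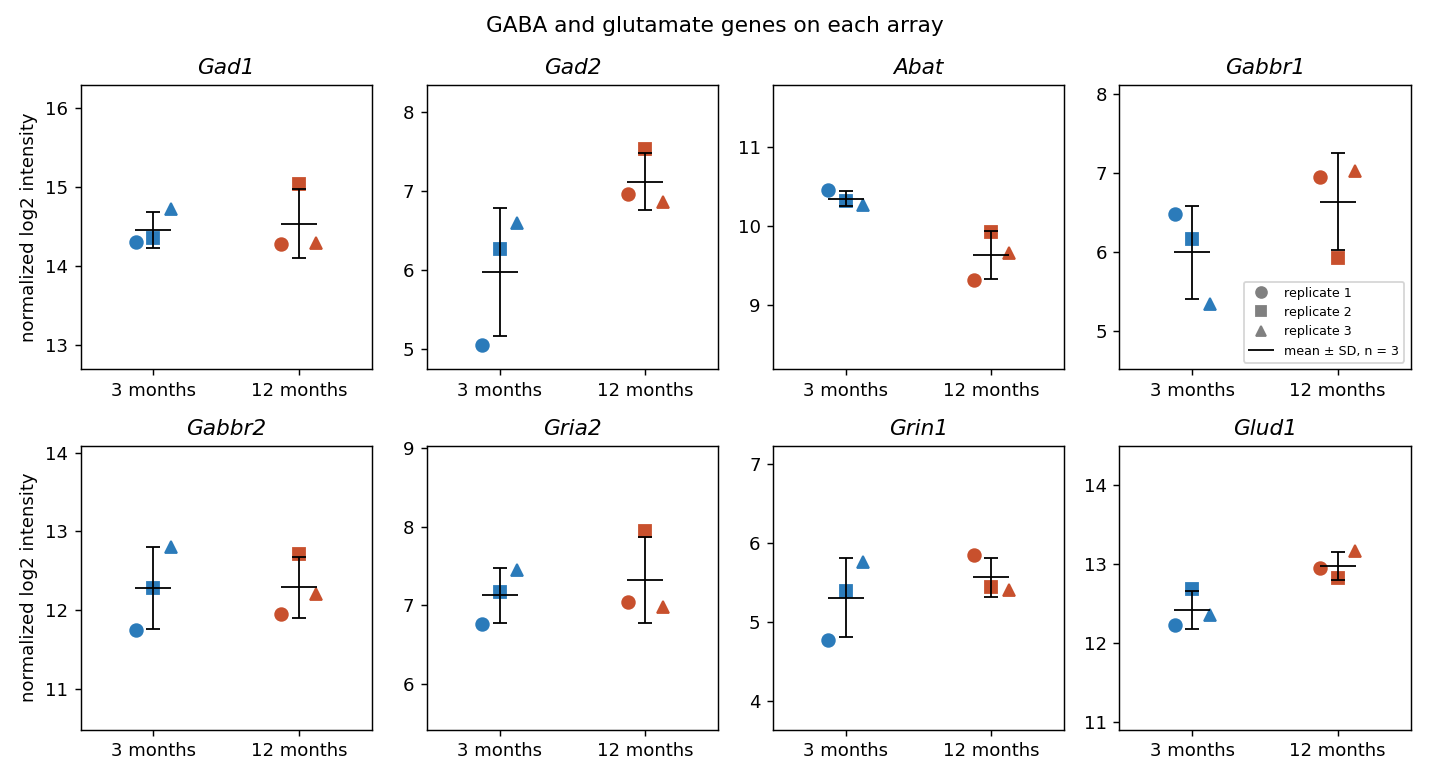
Log2 quantile-normalized signal (vertical axis) of the 8 genes on each of the 6 arrays, with 1 panel per gene; points are arrays, horizontal lines are group means and bars are SD. The ages do not overlap for *Gad2*, *Abat* and *Glud1*, and they overlap for the other 5 genes.

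The genes of GABA synthesis and breakdown did not move one way. *Gad1* and *Gad2* encode the larger and the smaller form of glutamate decarboxylase, and the smaller form is a well-known autoantigen of type 1 diabetes. The log2 signal of *Gad1* was 14.31, 14.35 and 14.72 on the 3-month arrays and 14.28, 15.04 and 14.29 on the 12-month arrays. The ages overlapped, and the 12-month replicate 2 array alone stood above the rest. The means were 14.46 ± 0.23 and 14.54 ± 0.44 (SD, n = 3 each). The difference of 0.08 had a 95% interval of -0.64 to 0.79 (SE 0.30, limma adjusted p = 0.873), and it was -0.29 under scaling by the 75th percentile.

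The log2 signal of *Gad2* was 5.05, 6.26 and 6.60 at 3 months and 6.96, 7.54 and 6.86 at 12 months. Every 12-month array was above every 3-month array, the 3-month replicate 1 array was lowest, and the probe was well above background on all 6 arrays. The means were 5.97 ± 0.81 (SD, n = 3) and 7.12 ± 0.36 (SD, n = 3), a 2.22-fold difference. On the log2 scale it was 1.15, with a 95% interval of 0.09 to 2.21 (SE 0.44, limma adjusted p = 0.133). *Gad2* was the only one of the 8 genes to pass the study's criterion of more than 2-fold and an unadjusted p under 0.05 when that p came from limma. Of all tested probes 22.0% passed it, 10.1% higher and 11.9% lower at 12 months. With the methods' t-test in place of limma, *Gad2* failed and 0 of the 8 genes passed, against 15.3% of all probes. That replacement was unpaired, while the study's supplement names a paired test for these arrays without saying what pairs them. Whether *Gad2* passes under the supplement's paired test was not tested. The *Gad2* difference fell under 2-fold, to a log2 value of 0.69 without the 3-month replicate 1 array and 0.94 without the 12-month replicate 2 array. It was 0.64 with normexp background correction and 0.81 with scaling by the 75th percentile. Before normalization, the background-subtracted *Gad2* signal spanned 17.2 to 105 scanner units at 3 months and 112 to 277 at 12 months.

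*Abat* encodes GABA transaminase, the enzyme that opens the breakdown of GABA. Its log2 signal was 10.45, 10.31 and 10.27 at 3 months and 9.32, 9.92 and 9.65 at 12 months. All 12-month arrays lay below all 3-month arrays, and the 3-month arrays lay close together. The means were 10.35 ± 0.095 (SD, n = 3) and 9.63 ± 0.30 (SD, n = 3), 1.64-fold higher at 3 months. The difference of -0.71 had a 95% interval of -1.31 to -0.12 (SE 0.25, limma adjusted p = 0.108), and it ran from -0.86 to -0.56 over the alternatives tried. The neuron markers moved the same way as *Abat*: the mean log2 signal of 9 of them was 9.98 to 10.93 at 3 months and 9.07 to 9.60 at 12 months, with 8 of 9 differences below 0 and only *Prph* called. The part of such cells in the *Abat* values was not tested.

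The GABA-B receptor works as a pair of subunits, of which *Gabbr1* encodes the one that binds GABA and *Gabbr2* the one that couples to G proteins. The log2 signal of *Gabbr1* was 6.48, 6.17 and 5.34 at 3 months and 6.95, 5.92 and 7.03 at 12 months. The ages overlapped, since the 12-month replicate 2 array lay below 2 of the 3-month arrays. The means were 6.0 ± 0.59 (SD, n = 3) and 6.64 ± 0.62 (SD, n = 3), with a difference of 0.64 and a 95% interval of -0.39 to 1.66 (SE 0.43, limma adjusted p = 0.331). It was 0.31 without the 3-month replicate 3 array, 0.99 without the 12-month replicate 2 array and 0.33 under scaling by the 75th percentile.

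The log2 signal of *Gabbr2* was 11.76, 12.28 and 12.80 at 3 months and 11.95, 12.72 and 12.21 at 12 months. The ages overlapped over most of their range. The means were 12.28 ± 0.52 (SD, n = 3) and 12.29 ± 0.39 (SD, n = 3), and the interval of the difference, -0.83 to 0.86, holds changes of either direction (difference 0.01, SE 0.35, limma adjusted p = 0.986).

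The ionotropic glutamate receptor subunits among the 8 genes were *Gria2*, the AMPA receptor subunit that limits calcium entry, and *Grin1*, the subunit that every NMDA receptor needs. The brighter *Gria2* probe read 7.13 ± 0.34 (SD, n = 3) at 3 months, from 6.76, 7.18 and 7.44, and 7.32 ± 0.54 (SD, n = 3) at 12 months, from 7.04, 7.95 and 6.98. The ages overlapped, with the 12-month replicate 2 array highest. The difference was 0.20 (95% interval -0.64 to 1.03, SE 0.35, limma adjusted p = 0.716), and at the other *Gria2* probe, matched to another RefSeq transcript, it was 0.43 (SE 0.38, adjusted p = 0.452).

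*Grin1* was the only one of the 8 genes not clear of background on every array: its probe was well above background on 3 of 3 arrays at 3 months and on 2 of 3 at 12 months, where replicate 3 missed the mark. Its log2 signal was 4.77, 5.39 and 5.76 at 3 months and 5.85, 5.44 and 5.41 at 12 months. The 12-month values lay among and just above the 3-month ones, with means of 5.30 ± 0.50 (SD, n = 3) and 5.56 ± 0.24 (SD, n = 3). The difference of 0.26 (95% interval -0.51 to 1.02, SE 0.32, limma adjusted p = 0.594) turned to -0.23 under scaling by the 75th percentile.

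*Glud1* encodes mitochondrial glutamate dehydrogenase, which feeds glutamate carbon into the citric acid cycle and is known as a control point of insulin release by amino acids. Its log2 signal was 12.22, 12.69 and 12.35 at 3 months and 12.94, 12.82 and 13.16 at 12 months. Every 12-month array was above every 3-month array, the nearest being replicate 2 of each age. The means were 12.42 ± 0.24 (SD, n = 3) and 12.97 ± 0.18 (SD, n = 3), a 1.47-fold difference. On the log2 scale it was 0.55, with a 95% interval of -0.03 to 1.14 (SE 0.25, limma adjusted p = 0.169), and the alternatives gave 0.28 to 0.69.

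**Figure D2:**
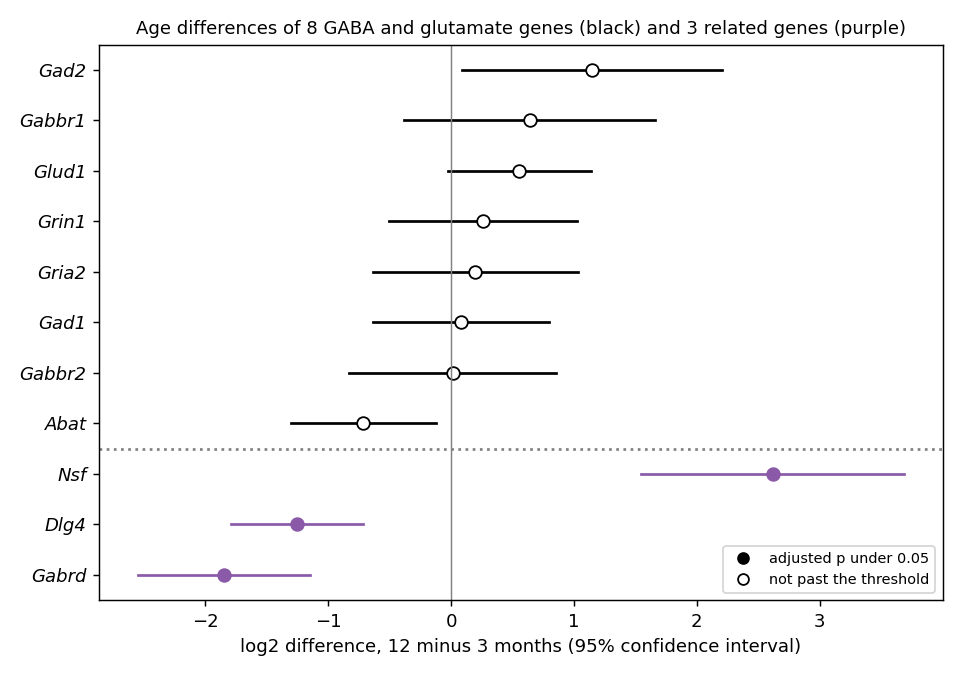
Log2 difference, 12 minus 3 months (horizontal axis), of the 8 genes in black and of 3 related genes past an adjusted p of 0.05 in purple; points are limma estimates and bars their 95% intervals. Only the intervals of *Gad2*, 0.09 to 2.21, and *Abat*, -1.31 to -0.12, leave out 0 among the 8 genes.

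Several of the 8 genes varied together among arrays of one age. *Gad1*, *Gad2*, *Gabbr2* and *Gria2* had their highest 12-month value on replicate 2 and their highest 3-month value on replicate 3. *Gabbr1* ran the other way, with its lowest value of each age on those arrays. The same 2 arrays had the lowest mean of the 5 acinar markers: 16.92 on 3-month replicate 3, against 17.93 and 17.98 on the other 3-month arrays, and 17.02 on 12-month replicate 2, against 18.14 and 18.21. The mean of the 3 duct markers ran alike, at 10.87 against 11.53 and 11.91, and at 10.59 against 11.66 and 12.18. Not every marker followed these means. *Ctrb1*, *Cpa1*, *Cela1*, *Cftr* and *Spp1* had their lowest value of each age on those arrays, while *Amy2a3* and *Pnlip* did so at neither age. *Krt19* did so at 12 months only, with 12.23 on 3-month replicate 3 against 11.94 on 3-month replicate 2. The part of exocrine RNA in the values of the 8 genes was not tested.

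Among other genes of the 2 pathways with a clear signal on all arrays, the one most like each gene over the 6 arrays is given as a description, since the arrays share age and scan. *Gad2* ran closest to *Gphn*, which encodes the receptor anchor gephyrin (Pearson r = 0.997, 6 arrays). *Glud1* ran closest to *Dlg3* (r = 0.971), *Abat* to *Dlg4* (r = 0.946) and *Gria2* to *Plcl1* (r = 0.936). The best matches of *Gabbr1*, *Gabbr2* and *Gad1* were *Gabarap* (r = 0.910), *Dlg2* (r = 0.846) and *Slc7a11* (r = 0.842).

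The wider pathways were read from 105 other genes of GABA and glutamate handling. Of these, 92 had a probe, 14 were well above background on no array, and 65 were tested. In limma 5 of the 65 passed an adjusted p of 0.05, or 7.69% beside 8.37% of all probes, 3 of them higher and 2 lower at 12 months. *Nsf* was among the higher ones, and *Gabrd* and *Dlg4* were the lower ones. The median difference over the 65 genes was -0.31 beside -0.17 over all tested probes, among genes that a filter on these same arrays had left. Of the 65 genes, 23 lay above 0 and 42 below, and 28 lay above the median of all tested probes. The study lists *Nsf* for the GABA synapse from these same samples, so that list is not independent evidence of its direction. Without the 12-month replicate 1 array 0 of the 65 genes were called, and 1.16% of all probes. Without 3-month replicate 1, 3-month replicate 3 or 12-month replicate 3, the count was 3, 2 and 2, beside 1.8%, 2.56% and 1.61% of all probes, with *Nsf*, *Gabrd* and *Dlg4* not among them.

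**Figure D3:**
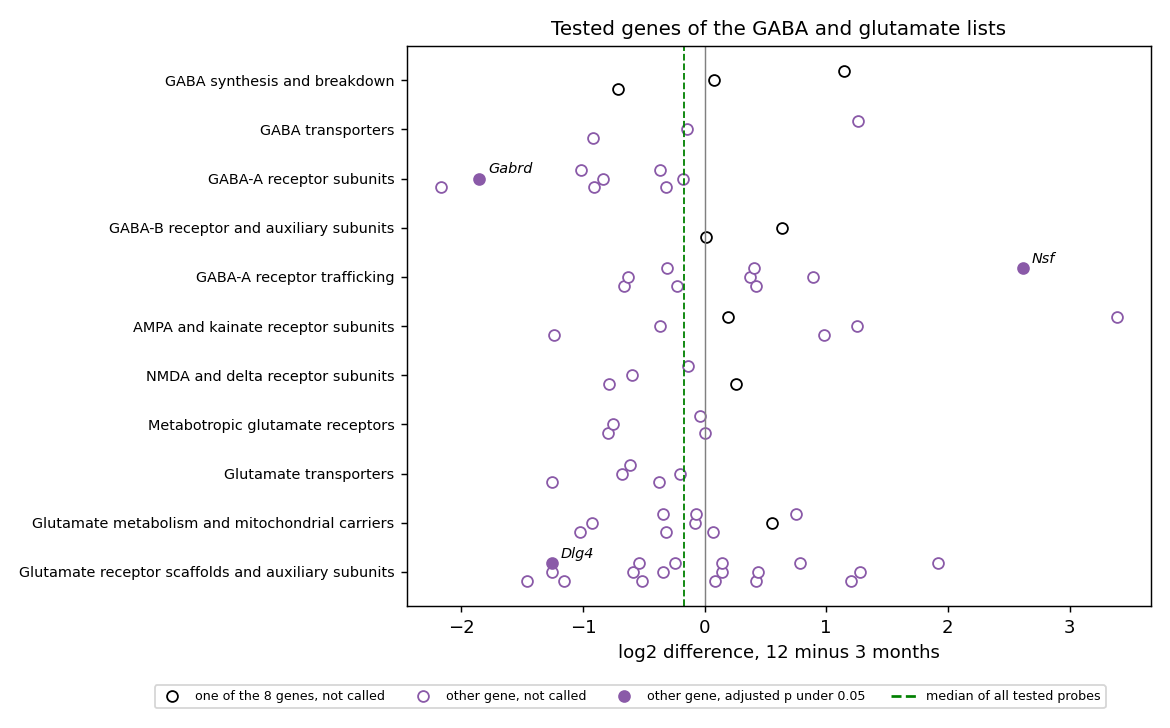
Log2 difference, 12 minus 3 months (horizontal axis), of tested genes in 11 lists of GABA and glutamate genes (rows); black marks the 8 genes, purple the others, filled points pass an adjusted p of 0.05 and the dashed line is the median of all tested probes. *Nsf* lies far above 0 and *Gabrd* and *Dlg4* below it, and 2 called genes are not drawn.

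Among the GABA-A receptor subunits, 9 were tested and 6 others were well above background on no array. *Gabra3*, an alpha subunit, passed the filter through the 3-month arrays alone, since it was well above background on 3 arrays at 3 months and 0 at 12 months. *Gabrd*, the delta subunit of receptors outside synapses, read 10.05, 9.22 and 9.54 at 3 months and 7.50, 7.85 and 7.91 at 12 months. It fell by 1.85 on the log2 scale (SE 0.29, limma adjusted p = 0.0193).

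In receptor trafficking, *Nsf*, whose ATPase takes apart used membrane fusion complexes, read 5.39, 6.76 and 6.65 at 3 months and 8.70, 8.51 and 9.44 at 12 months, with no overlap. The difference was 6.13-fold (log2 difference 2.62, SE 0.45, limma adjusted p = 0.0229), and the log2 difference was 1.73 with normexp correction. Among the scaffolds of glutamate receptors, *Dlg4*, which encodes the postsynaptic scaffold PSD-95, read 11.98, 12.06 and 11.97 at 3 months and 10.53, 10.88 and 10.84 at 12 months. It fell by 1.25 on the log2 scale (SE 0.22, limma adjusted p = 0.0260). Its dimmer second probe gave -1.42 (limma adjusted p = 0.176), but passed the filter through the 3-month arrays alone. That probe was well above background on 3 arrays at 3 months and 0 at 12 months, so its direction is not a second measure of the fall. It also enters the mean over the *Dlg4* probes. The *Dlg4* call was lost on leaving out any 1 array other than 12-month replicate 2 (adjusted p = 0.0578 to 0.117) and with the mean over its probes (adjusted p = 0.0668), while the log2 difference stayed between -1.34 and -1.14.

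The levels of several marker lists also differed between the ages, beside every gene above. The mean log2 signal of 7 Schwann cell and glial markers was 9.74 to 9.90 at 3 months and 8.72 to 9.28 at 12 months, with 8 of 8 tested markers below 0, *Mbp* and *Sox10* called lower, and *Cdh19* well above background on no array. The mean of 7 beta cell markers was 14.13 to 14.41 at 3 months and 15.14 to 15.64 at 12 months, where *Slc2a2* alone was called. The 5 alpha cell markers gave 12.20 to 12.66 and 12.54 to 12.82, overlapping between the ages. The 4 delta and PP cell markers gave 14.46 to 14.49 at 3 months and 15.10 to 15.39 at 12 months, with *Hhex* called higher. The 3 stellate markers gave 11.26 to 12.02 and 12.45 to 13.84, and the 3 endothelial markers 8.06 to 8.47 and 7.16 to 7.72, neither list overlapping between the ages. The endothelial markers did not move one way: *Cdh5* (-2.11) and *Tek* (-1.14) were lower at 12 months, *Pecam1* (1.23) was higher, and 0 were called. *Cdh5* passed the filter through the 3-month arrays alone, being well above background on 3 arrays at 3 months and 0 at 12 months. The part of cell makeup in the differences of *Gabrd*, *Dlg4*, *Gad2*, *Glud1* and the other genes was not tested.

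**Figure D4:**
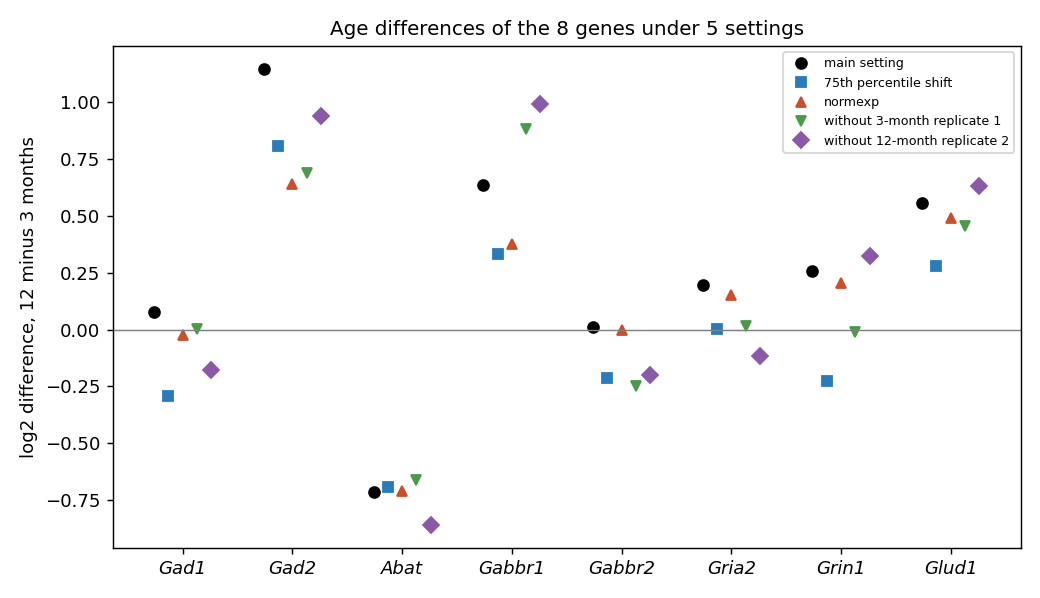
Log2 difference, 12 minus 3 months, of the 8 genes under 5 settings, of which 3 use all arrays and 2 leave out 1 array; each point is 1 gene under 1 setting. *Abat* stays below 0 and *Gad2*, *Gabbr1* and *Glud1* above 0 in all 5, while *Gad1*, *Gabbr2* and *Grin1* lie on either side of 0, and *Gria2* falls below 0 without 12-month replicate 2 alone.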

How the data were processed

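The authors scanned 1-colour arrays with Agilent Feature Extraction 11.0.1.1; the deposited files hold background-subtracted spot intensity. Log2 values of 12145 probes, also deposited,  followed the values computed here (r of at least 0.9996 on each array) and served as an alternative. Here log2 intensity was averaged over spots of a probe and quantile normalized. Probes well above background on at least 3 of 6 arrays were kept, and 17941 were tested with limma 3.58.1 in R 4.3.3 (no block, two-sided, Benjamini-Hochberg over all tested probes), after the script was tested on simulated data. An exact permutation test of 3 against 3 arrays cannot give a two-sided p under 0.1. Probes were named by RefSeq accession through assembly GRCr8; a gene takes its brightest probe. No coordinates are given, since the array uses another build. Named were the 8 genes, related genes past an adjusted p of 0.05 (2 of them are not reported here) and the closest match of each gene. Genes and lists were chosen with earlier results of these data known. The number of arrays limits the precision. Alternatives covered scaling, background correction, the filter, variance options, the test, probe averaging and leaving out each array.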

Additional observations from a re-analysis of the deposited data

How the results depend on the processing

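The count of called genes among the 8 stayed at 0 under every alternative at an adjusted p of 0.05, leaving out each array included (0 to 0), and was 1 (*Gad2*) at the study's criterion with limma and 0 at that criterion with the methods' t-test. Of the 65 related genes 5 were called, beside 8.37% of all probes. With normexp the count was 8 (10.5% of all probes), with the methods' t-test after Benjamini-Hochberg adjustment 2 (2.44%), at the study's criterion 17 (22.0%) and at that criterion with the methods' t-test 11 (15.3%). Other filters changed the genes tested: 8 of 51 were called with all 6 arrays above background (12.6%), and 11 of 92 without a filter (9.48%). Over the 65 genes the count ran from 0 without 12-month replicate 1 (1.16%) up to 7 without 12-month replicate 2 (12.1%). Directions that turned belonged to genes that were not called. Scaling by the 75th percentile gave -0.29 for *Gad1*, -0.21 for *Gabbr2* and -0.23 for *Grin1*, and normexp gave -0.025 for *Gad1*. Leaving out 1 array gave -0.18 to 0.21 for *Gad1*, -0.25 to 0.27 for *Gabbr2*, -0.12 to 0.37 for *Gria2* and -0.010 to 0.49 for *Grin1*. The causes were not tested.

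The labels number 2 arrays of each age alike, and same-numbered arrays did not deviate together (correlations of -0.0104 and -0.311), so the numbers were not taken to pair arrays. With the replicate block on these 4 arrays 0 of the 8 genes and 0 of the related genes were called, and *Gabbr2* was at 0.31. A fit without a block used a partly different set, the 4 arrays whose names end alike. It also called 0 of the 8 genes and 0 of the related genes, with *Gabbr2* at -0.21. Both fits called 0% of all probes, and since their arrays differ they do not show what the block does. A scan block could not be fitted, since each age lies in 1 scan. Signal over background limits the dim probes, *Grin1* among them: the lowest log2 value well above background was 2.89 to 3.17 on the 3-month arrays and 4.26 to 5.13 on the 12-month arrays.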

Other observations

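Other AMPA receptor subunits, picked after their values were seen, had larger differences than *Gria2*. *Gria3* read 11.95, 11.79 and 11.96 at 3 months and 13.08, 13.11 and 12.45 at 12 months, with no overlap and a log2 difference of 0.98 (SE 0.27, limma adjusted p = 0.0671). The brightest *Gria4* probe read 3.06, 6.07 and 5.87 at 3 months, where it was well above background on 2 of 3 arrays, and 8.62, 9.08 and 7.46 at 12 months. Its log2 difference of 3.39 missed the threshold (SE 0.86, limma adjusted p = 0.0568), while the other *Gria4* probes gave 2.43 and 2.46 (adjusted p = 0.0474 and 0.0440). Some alternatives called them. *Gria3* was called with normexp correction (10.5% of all probes), with all 6 arrays above background (12.6%) and with trended robust variances (11.3%). *Gria4* was called with normexp correction, trended robust variances, 75th percentile scaling (9.58%) and the mean over its probes (8.56% of genes tested). Neither was called on leaving out any 1 array, in the 4-array fits, or with the methods' t-test after Benjamini-Hochberg adjustment.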
